A study of Mus musculus with 8 samples.

Results

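Interferon-stimulated genes are the genes that cells switch on when they sense an interferon, and 38 of them were followed here by a fixed list of symbols. The array held a probe set annotated to that gene alone for 36 of the 38, out of 18193 genes read in the same way. Each gene was read from 1 probe set, the one with the highest mean log2 value over the 8 arrays. Of the 36, 31 lay above the filter on low values (a mean log2 signal of 5.274) and were tested among 13221 genes. Oas3, Mx1, Mx2, Zbp1 and Cxcl10 lay below it. Isg15 shares its probe set with another gene and Ifi44 had none under this rule, so neither was analysed here.

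RNA came from the organ of Corti, the band of hair cells and supporting cells that detects sound in the cochlea, of mice at postnatal day 16, cut into an apical and a basal region. Conditional knockout mice (cKO) were Atoh1-Cre;Dicer1(flox/flox) and their littermate controls Atoh1-Cre;Dicer1(flox/wt), so all mice carried the Cre transgene and at least 1 floxed allele. Atoh1 is the hair cell fate factor, and Cre under its control acts mainly in hair cells, which are a minority of the cells in the dissected tissue; Dicer1 encodes the enzyme that matures microRNAs. The 4 groups were control apex, control base, cKO apex and cKO base, with 2 samples each. Each sample joined that region from both ears of 1 mouse, so apex and base samples with the same genotype and number were taken as 1 mouse, giving 4 presumed mice.

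Type I interferons bind a receptor that activates the kinases Jak1 and Tyk2, and these phosphorylate Stat2. With Irf9 it takes part in a complex that enters the nucleus and binds the interferon-stimulated response element, a short DNA motif in the promoters of its targets. The targets include sensors of viral RNA, enzymes that destroy it, proteins that hinder entry or release of virus, the peptide-loading machinery of antigen presentation, and Irf7 and Usp18, which strengthen and restrain the response. A low tonic level of this programme is present in many tissues without infection.

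The motif that the complex binds was searched in the promoter windows of the members, because these genes are grouped by that shared control. The search used GAAANNGAAA and its reverse complement TTTCNNTTTC on both strands, in RefSeq windows on GRCm38.p6 that run from 250 bases before to 50 bases after each start. Of the 29 members with a window in the table, 15 (51.7%) held a match, against 1079 of 27025 genes (3.99%). Matches lay upstream of the start in 34.4% of the members' 32 windows and in 2.98% of all 32851 windows. Stretches around the upstream matches are printed 5′ to 3′ on the strand of the gene, with the matched bases in capitals (overlapping matches run together). Stat2, Oas1a and Bst2 are shown because their control signals lay above their cKO signals in both regions, Ifit1 and Ifit3 because the control mice were farthest apart in them, and Ifitm2 and Rsad2 because they carry a match and gave another pattern. They come from chr10:128270256-128270305 (plus strand) for Stat2, chr5:120907526-120907565 (minus) for Oas1a, chr8:71537567-71537622 (minus) for Bst2, chr19:34640765-34640833 (plus) for Ifit1, chr19:34583353-34583436 (plus) for Ifit3, chr7:140955978-140956027 (minus) for Ifitm2 and chr12:26456543-26456592 (minus) for Rsad2.
Stat2: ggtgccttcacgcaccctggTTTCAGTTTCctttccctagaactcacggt
Oas1a: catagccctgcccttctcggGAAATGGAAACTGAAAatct
Bst2: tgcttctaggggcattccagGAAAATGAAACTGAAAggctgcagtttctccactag
Ifit1: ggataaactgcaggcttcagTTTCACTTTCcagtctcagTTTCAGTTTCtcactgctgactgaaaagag
Ifit3: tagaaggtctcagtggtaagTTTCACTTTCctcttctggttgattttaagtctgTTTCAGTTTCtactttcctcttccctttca
Ifitm2: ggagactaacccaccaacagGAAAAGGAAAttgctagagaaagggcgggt
Rsad2: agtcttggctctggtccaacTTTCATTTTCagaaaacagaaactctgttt

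Counted from the annotated start, the matches began at -222 in Stat2, at -20 and -14 in Oas1a, at -130 and -124 in Bst2, at -104 and -85 in Ifit1, at -156 and -122 in Ifit3, at -46 in Ifitm2 and at -120 in Rsad2. A match describes letters in a window and no binding was measured. Both members with and members without a match were on balance lower in cKO: over both regions, cKO minus control had a median of -0.53 (log2) in the 12 tested members with a match, -0.26 in the 13 without one in the window and -0.55 in the 6 whose promoter was not in the table.

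Precision is limited by having 2 arrays in a group. The median signal of an array was 67.3 to 100, with the trimmed mean set to 500. Dicer1 itself had log2 signals of 9.04 to 9.57 in controls and 9.06 to 9.41 in cKO. Hair cell and supporting cell markers were present, with Myo7a, a hair cell myosin, at 7.68 to 9.17 and Sox2, a supporting cell factor, at 9.30 to 10.99. The control mice differed in sex-linked markers and in composition. Xist, the transcript that silences an X chromosome in females, had 12.54 and 12.39 in control mouse 1 and no more than 8.23 elsewhere. The 4 tested sex-linked genes were Xist and genes of the Y chromosome. Of these, 1 was above the filter level in each control mouse 1 sample and 4 in every other sample. By these markers control mouse 1 read as female and the other presumed mice as male. Dct, a melanocyte enzyme of the stria vascularis, stood at 5.96 in replicate 1 of control base against 13.88 in replicate 2.

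Members of the list were on balance higher in controls than in cKO in both regions of the cochlea. Within controls they were higher in mouse 1 than in mouse 2, mainly in the base. In the apex the median of mouse 1 minus mouse 2 was 0.18 (log2), and 0.024 after quantile normalization. The members' summed apical signal was 16295 in control mouse 1 and 16384 in mouse 2. After subtracting each gene's mean over the 8 arrays, the median over the 31 members was 0.04 and -0.12 (log2) in the control apex samples, 0.56 and 0.21 in control base, -0.28 and -0.34 in cKO apex, and -0.02 and -0.14 in cKO base. Control samples lay above cKO samples of the same region without overlap. Control base replicate 1 stood highest: it was the top array for 21 of the 31 members, against 15.4% of all tested genes. The lowest array was cKO apex replicate 2 for 12 members (9.07% of all genes) and cKO apex replicate 1 for 8 (12.7%).

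**Figure D1:**
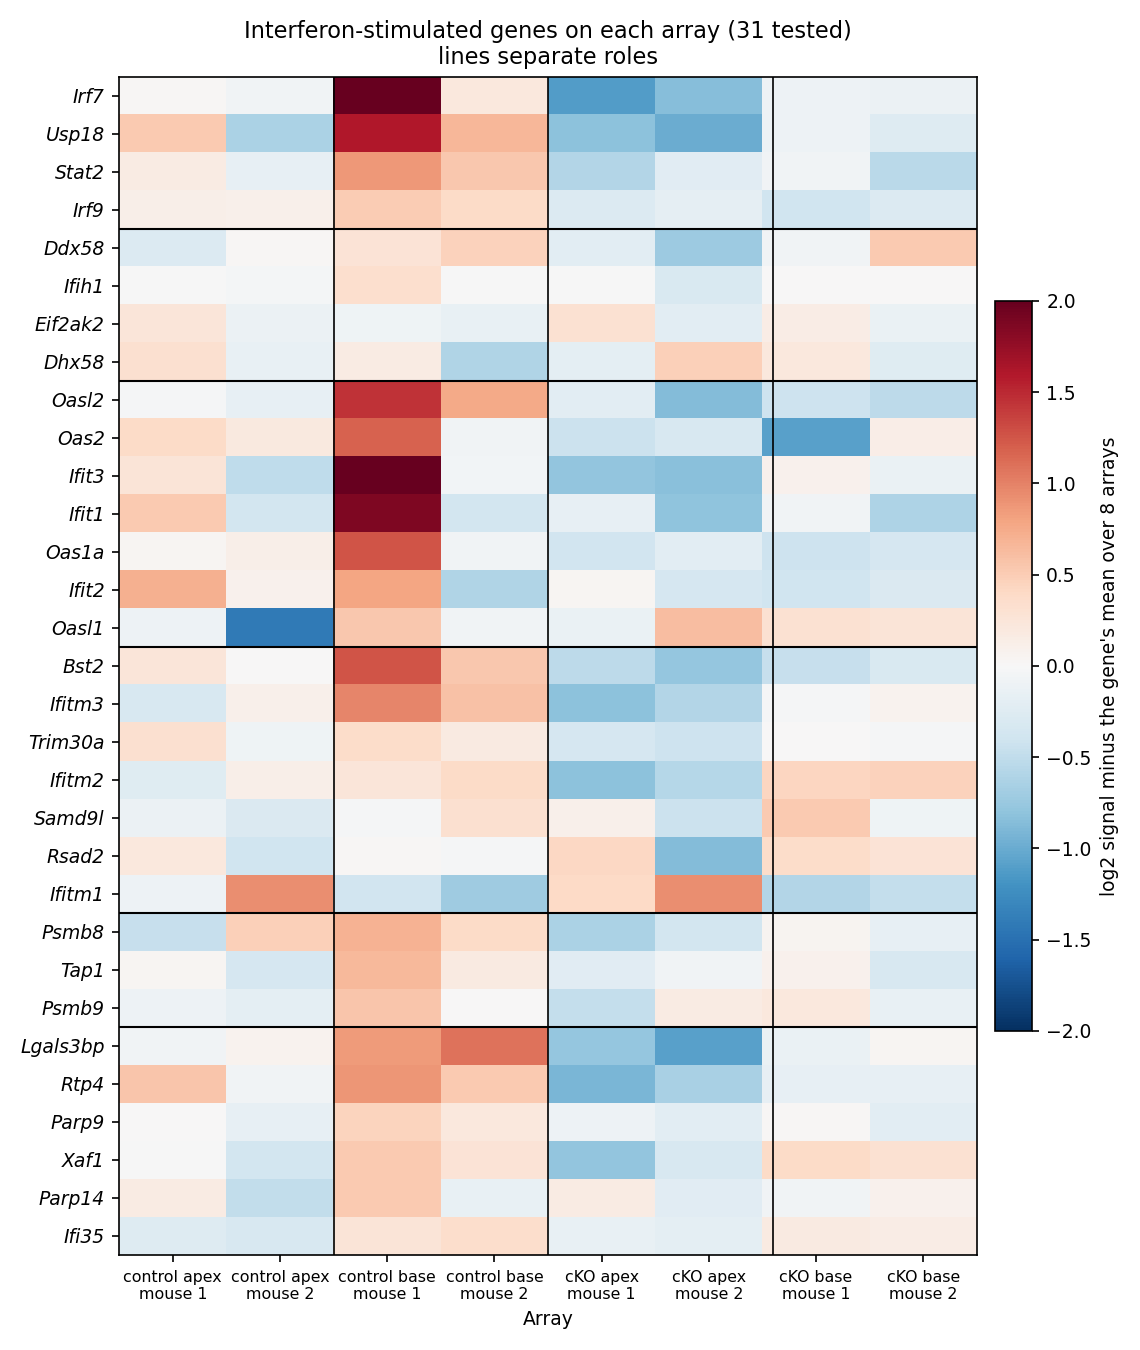
Each row is 1 of the 31 tested members and each column 1 of the 8 arrays, coloured by the log2 signal minus that gene's mean over the 8 arrays, with black lines between roles and between groups. Control base mouse 1 is red through most rows, with Irf7, Ifit1 and Ifit3 deepest, while both cKO apex columns are mostly blue.

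The first comparison asked how the members differed between cKO and control mice, in each region and over both. The regulators of the response, several RNA-directed effectors and the restriction factors Bst2 and Ifitm3 gave lower signals in cKO in both regions. Averaged over both, Irf7, Usp18, Bst2 and Oasl2 were 2.14-fold, 2.12-fold, 2.04-fold and 2.01-fold lower. The genotypes were separate without overlap in apex and in base, each time with controls higher, for 11 members: Irf7, Irf9, Stat2, Usp18, Oas1a, Oasl2, Bst2, Ifitm3, Trim30a, Lgals3bp and Rtp4. These 11 of 31 compare with 3.99% of all tested genes, and the opposite pattern was seen in 0 members (3.87% of all genes). None of these differences passed the test across all genes.

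In the apex, cKO minus control was below 0 for 25 of 31 members (49.9% of all genes), with a median of -0.38 (log2) against 0.00 over all tested genes. Of all genes 0 passed the threshold of limma in the apex, and 290 had an unadjusted p below 0.05 (2.19%). The latter included 5 members, all lower in cKO (1.09% of all genes were lower at that p and 1.1% higher): Lgals3bp, Rtp4, Ifitm2, Ifitm3 and Bst2. Controls lay above cKO without overlap for 15 members (16.2% of all genes). The reverse held for 1 (15%), Ifi35 in the probe set used.

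In the base the median was -0.44, against 0.00 over all genes, and 24 of 31 members were below 0 (50.2% of all genes). Again 0 genes passed in limma, and 413 had an unadjusted p below 0.05 (3.12%). Of these 9 were members, all lower in cKO (1.48% of all genes were lower and 1.64% higher): Lgals3bp, Oasl2, Irf9, Bst2, Ifitm3, Rtp4, Usp18, Stat2 and Oas1a. Controls lay above cKO without overlap for 15 members (15.6%), and the reverse held for 2, Ifitm2 and Rsad2 (13.1%). Control base replicate 1 taken alone lay above both cKO basal samples for 25 members (39.3% of all genes), and control base replicate 2 alone for 15 (39.0%). The size of the basal difference rested on control base replicate 1: the median was -0.19 without it and -0.74 without control base replicate 2. With control base replicate 2 left out, limma called 37 genes and 2 members, and with both samples of control mouse 2 left out, 103 genes and 4 members.

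Over both regions, with each mouse entered once as the mean of its apex and base, 25 of 31 members were below 0 (50.3% of all genes) and the median was -0.38. Here too 0 genes passed in limma, and 319 had an unadjusted p below 0.05. Among these were 10 members, all lower in cKO (1.08% of all genes): the 11 that separated the genotypes, less Trim30a. The median was -0.15 without control mouse 1. Leaving out either of its samples drops the whole mouse here, so that is the same fit. Without mouse 1, the remaining control mouse lay above both cKO mice in both regions for 12 of 31 members (17.2% of all genes), and control mouse 1 alone did so for 20 (20.5%). In simulated data of the same size, limma called 95.2% of the genes given a log2 shift of 2 and 50.4% of those given 1 for this comparison. For the apex alone it called 84.4% and 27.4%, and for the base alone 85.2% and 26.6%. The simulated arrays varied independently, whereas apex and base deviations correlated in the real control mice (r = 0.339). The shares for both regions together are therefore likely too high for means of real mice.

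**Figure D2:**
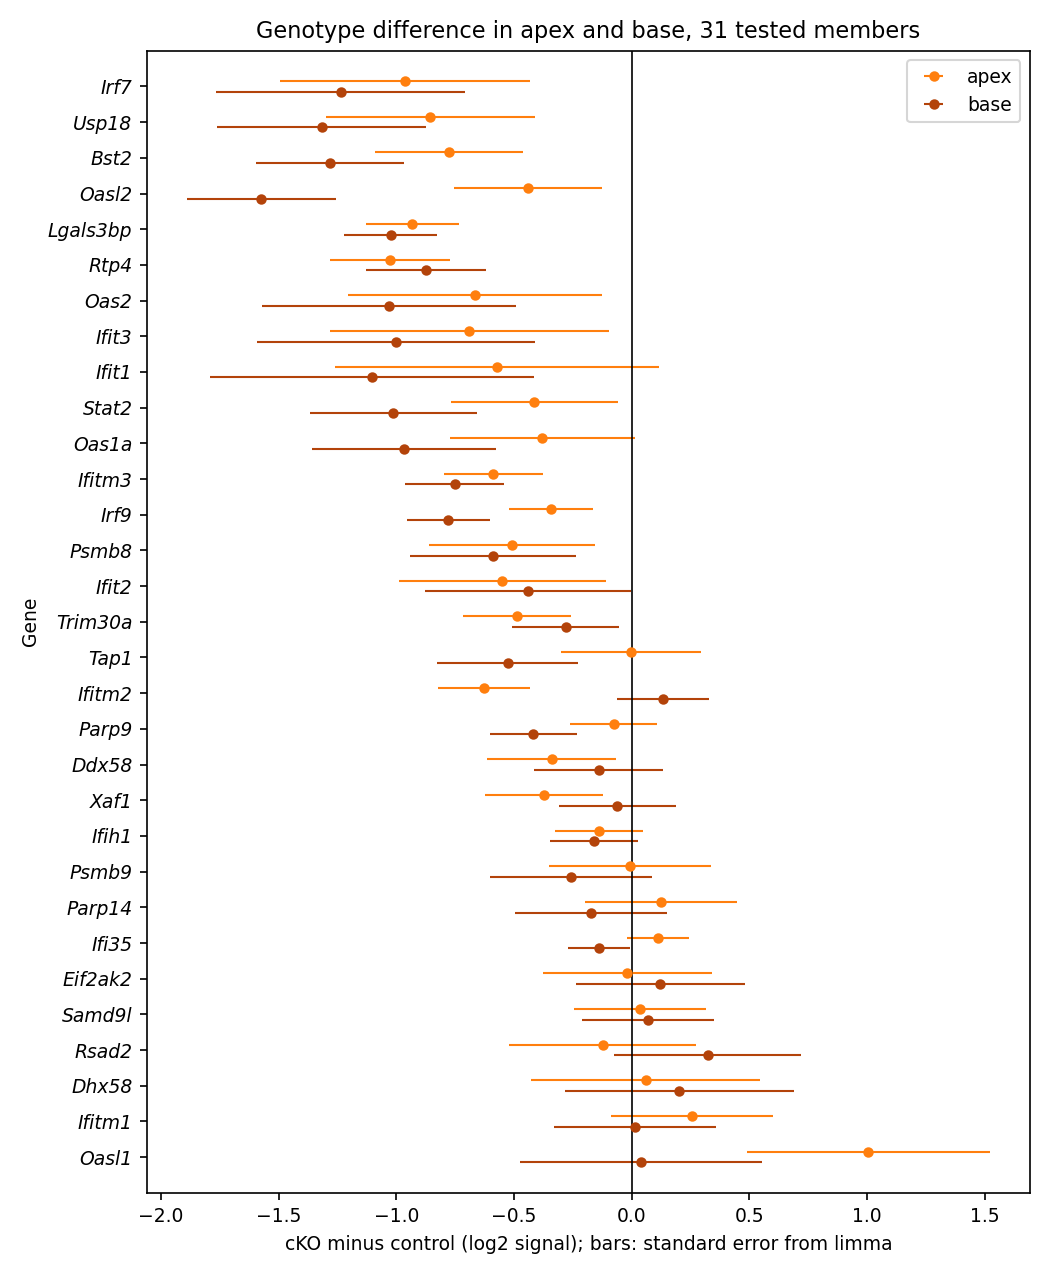
Points give cKO minus control in log2 signal for the 31 tested members, in the apex (light) and base (dark), ordered by the mean of both, and bars give the standard error from limma. Most points lie left of 0, from Irf7 and Usp18 at the top to Oasl1 at the bottom, which gave 1.01 in the apex and 0.04 in the base.

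The regulators were the most uniform role group: all 4 separated the genotypes in both regions, with medians of -0.63 in the apex and -1.12 in the base. Irf7, the factor that amplifies interferon production, had log2 signals of 7.21 and 7.11 in control apex, 6.06 and 6.33 in cKO apex, 9.22 and 7.39 in control base, and 7.07 and 7.06 in cKO base. Its control samples were higher in each region, and control base replicate 1 stood far above all others. The apical difference between cKO and control was -0.96 ± 0.53 (log2 ± SE), that in the base -1.24 ± 0.53, and over both -1.10 ± 0.36, which is 2.14-fold lower in cKO (limma, unadjusted p = 0.0285, adjusted p = 0.999). Without control base replicate 1 the basal difference of Irf7 was -0.32.

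Usp18 removes Isg15 from proteins and blunts signalling at the interferon receptor. Its signals were 7.98 and 6.82 in control apex against 6.63 and 6.46 in cKO, and 9.06 and 8.11 in control base against 7.35 and 7.19 in cKO. Control mouse 1 was the higher control in both regions, by 2.23-fold and 1.92-fold. The difference over both regions was -1.09 ± 0.38 (limma, unadjusted p = 0.0356, adjusted p = 0.999), 1.81-fold in the apex and 2.49-fold in the base.

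Irf9, the DNA-binding part of the complex, varied least between replicates among the 4 regulators. Control signals were 8.84 and 8.83 in the apex and 9.24 and 9.11 in the base, and cKO signals 8.45 and 8.54 in the apex and 8.33 and 8.46 in the base. The lowest control of either region lay above the highest cKO of either region, and the control replicates differed by 0.01 and 0.13. cKO minus control was -0.34 ± 0.18 in the apex, -0.78 ± 0.18 in the base (unadjusted p = 0.00273 in limma) and -0.56 ± 0.16 over both (unadjusted p = 0.0158, adjusted p = 0.999). Stat2, its transactivating partner, had 6.26 and 5.92 in control apex, 5.5 and 5.86 in cKO apex, 6.96 and 6.63 in control base, and 6.01 and 5.56 in cKO base. Groups did not overlap in either region, although in the apex the nearest samples were 5.92 and 5.86. Its difference was -0.71 ± 0.27 over both regions (limma, unadjusted p = 0.0472, adjusted p = 0.999).

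**Figure D3:**
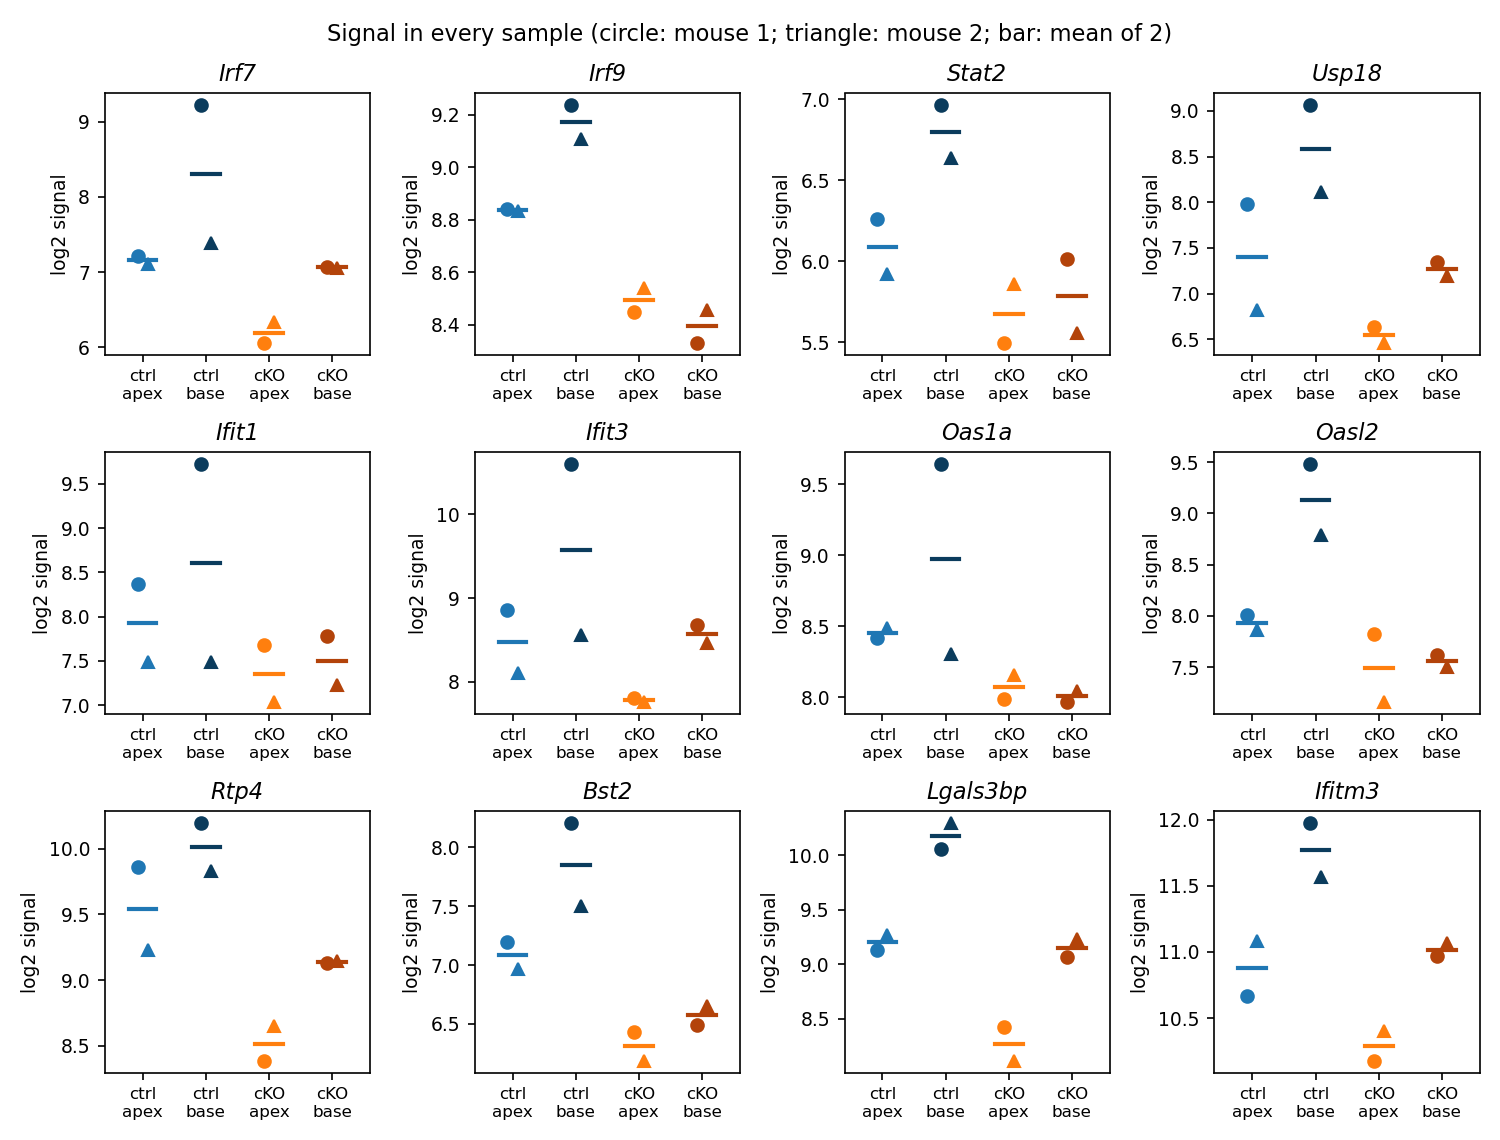
Log2 signal of 12 members in every sample (circles mouse 1, triangles mouse 2, bars the mean of both samples), each panel with its own scale. In the 10 panels other than Ifit1 and Ifit3 both control points lie above both cKO points of the same region, while Ifit1 and Ifit3 are set apart mainly by control base mouse 1. The panels were picked: they hold 10 of the 11 members, among 31 tested, that separated the genotypes in both regions.

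RNA-directed effectors bind foreign RNA or make the 2′,5′-oligoadenylate messenger that activates RNase L. The 7 tested had medians of -0.55 in the apex and -1.0 in the base. Their families are close in sequence, so probe sets of the Oas and Ifit genes may share signal, and their values are uncertain in that respect. Oasl2 had 8.01 and 7.86 in control apex, 7.82 and 7.16 in cKO apex, 9.48 and 8.79 in control base, and 7.62 and 7.5 in cKO base. At their nearest samples the apical groups were 0.03 apart and the basal ones 1.17.

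Oasl2 had the largest basal difference of the list, -1.57 ± 0.32 (2.98-fold, limma, unadjusted p = 0.00132, adjusted p = 1), against -0.44 ± 0.32 in the apex. Oas1a, an oligoadenylate synthetase, had 8.42 and 8.49 in control apex, 7.99 and 8.16 in cKO apex, 9.64 and 8.31 in control base, and 7.97 and 8.04 in cKO base. Both controls were higher in each region, with control base replicate 1 far above the rest. It gave -0.67 ± 0.26 over both regions (limma, unadjusted p = 0.0466, adjusted p = 0.999), and the basal value of -0.97 was -0.30 without control base replicate 1.

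Ifit1, which binds RNA that lacks the host cap mark, did not separate the genotypes. It had 8.37 and 7.48 in control apex, 7.68 and 7.04 in cKO apex, 9.72 and 7.49 in control base, and 7.78 and 7.23 in cKO base. The control samples of mouse 1 were high, and those of mouse 2 lay within the range of the cKO samples in both regions. The basal difference of -1.10 ± 0.69 was 0.014 without control base replicate 1. Ifit3, its binding partner, had 8.85 and 8.10 in control apex, 7.81 and 7.76 in cKO apex, 10.60 and 8.55 in control base, and 8.68 and 8.46 in cKO base. Groups overlapped in the base, where the difference of -1.0 ± 0.59 was 0.020 without control base replicate 1.

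Ifit2, another gene of that family, had 9.66 and 9.04 in control apex against 9.0 and 8.61 in cKO, and 9.74 and 8.35 in control base against 8.55 and 8.66 in cKO. Its apical groups were 0.05 apart, and its basal groups overlapped. Oas2 had 6.49 and 6.32 in control apex against 5.69 and 5.79 in cKO, and 7.30 and 6.05 in control base against 5.04 and 6.25 in cKO. Its apical groups were separate and its basal groups overlapped.

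Oasl1, which restrains translation of Irf7, ran the other way in the apex, with 5.99 and 4.68 in controls and 5.97 and 6.72 in cKO. Groups overlapped, and the difference was 1.01 ± 0.52 (limma, unadjusted p = 0.0893, adjusted p = 1). It was the largest apical difference in favour of cKO among the 31, and it ranged from 0.35 to 1.66 as single samples and mice were left out. In the base its signals were 6.64 and 6.03 in controls and 6.40 and 6.35 in cKO.

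Genes that block entry, replication or release of virus were mixed, with medians of -0.49 in the apex and 0.01 in the base over 7 tested. Bst2, the tether that holds budding virus on the cell surface, had 7.20 and 6.97 in control apex, 6.43 and 6.19 in cKO apex, 8.20 and 7.5 in control base, and 6.49 and 6.65 in cKO base. All 4 control samples lay above all 4 cKO samples. The difference was -0.78 ± 0.32 in the apex, -1.28 ± 0.32 in the base (unadjusted p = 0.00419 in limma) and -1.03 ± 0.25 over both, 2.04-fold lower in cKO (unadjusted p = 0.00957, adjusted p = 0.999). Bst2 is also made by plasmacytoid dendritic cells. Of 8 listed markers of these cells, Bst2 included, 7 had a probe set, and their summed signal was 2494 to 2936 in controls and 2488 to 3118 in cKO. The 4 tested gave cKO minus control over both regions from -1.03, which is Bst2, to 0.69, with a median of 0.07, and Siglech, a defining marker, was below the filter at 4.27 to 5.66. The part of these cells in the values of Bst2 was not tested.

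Ifitm3, a membrane protein that hinders fusion of virus in endosomes, had 10.67 and 11.08 in control apex, 10.18 and 10.40 in cKO apex, 11.97 and 11.57 in control base, and 10.97 and 11.06 in cKO base. Groups were separate in each region, and the control mice had opposite order in apex and base. The difference was -0.59 ± 0.21 in the apex, -0.75 ± 0.21 in the base and -0.67 ± 0.13 over both (limma, unadjusted p = 0.00320, adjusted p = 0.999). It stayed between -0.75 and -0.59 as single samples and mice were left out.

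The neighbouring family members gave other values, with the caveat that the Ifitm genes resemble each other in sequence. Ifitm2 had 9.36 and 9.73 in control apex against 8.80 and 9.04 in cKO, and 9.85 and 9.999 in control base against 10.04 and 10.07 in cKO. Controls were higher in the apex and lower in the base, without overlap in either. Ifitm1 had 10.37 and 11.40 in control apex against 10.87 and 11.40 in cKO, and 10.08 and 9.75 in control base against 9.88 and 9.99 in cKO, and overlapped in both regions.

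Trim30a, an interferon-induced Trim protein, was separate in both regions, with 8.14 and 7.73 against 7.48 and 7.41 in the apex and 8.19 and 8.0 against 7.83 and 7.80 in the base, controls first. Rsad2 (viperin), which makes a chain-terminating nucleotide, had 10.30 and 9.69 in control apex, 10.51 and 9.23 in cKO apex, 10.11 and 10.07 in control base, and 10.46 and 10.36 in cKO base. Its apical groups overlapped and in the base cKO was higher, by 0.32. Other probe sets of Rsad2 above the filter gave -0.16 and -0.26 in the base, so the basal direction depended on the probe set. Samd9l, a restriction factor of poxviruses, overlapped in both regions with signals of 9.08 to 10.04.

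Sensors of foreign nucleic acid gave small differences in the probe sets used, with medians of -0.08 in the apex and -0.01 in the base over 4 tested. In these probe sets 0 of 4 separated the genotypes in either region. Ifih1 (Mda5), a receptor for long viral RNA, stayed within 9.78 to 10.43 on all arrays. Ddx58 (Rig-I), which detects uncapped RNA ends, had 8.92 and 9.22 in control apex, 8.99 and 8.48 in cKO apex, 9.47 and 9.66 in control base, and 9.13 and 9.72 in cKO base. Dhx58 (Lgp2), their helper, had signals of 4.68 to 5.76, close to the filter. Eif2ak2 (Pkr), a kinase that halts translation on double-stranded RNA, was at 5.72 to 6.23. Another Eif2ak2 probe set above the filter gave cKO minus control of -0.23 in the apex and -1.29 in the base. The one used gave -0.02 and 0.12. For Ddx58 another probe set above the filter gave -0.36 and -0.49, against -0.34 and -0.14 for the one used.

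Antigen processing was represented by 3 genes of the immunoproteasome and the peptide transporter, with medians of -0.01 in the apex and -0.53 in the base. Psmb8, an immunoproteasome subunit, had 6.66 and 7.6 in control apex, 6.50 and 6.75 in cKO apex, 7.81 and 7.51 in control base, and 7.18 and 6.96 in cKO base, separate in the base only. Tap1, a subunit of the peptide transporter, had 7.15 and 6.77 in control apex, 6.89 and 7.03 in cKO apex, 7.76 and 7.28 in control base, and 7.20 and 6.79 in cKO base, with a narrow gap in the base. Psmb9 overlapped in both regions, at 6.32 to 7.36.

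Of the remaining members, Lgals3bp had the smallest p of the list in each genotype comparison. It encodes a secreted glycoprotein that binds galectins. Its signals were 9.13 and 9.27 in control apex, 8.43 and 8.12 in cKO apex, 10.06 and 10.29 in control base, and 9.07 and 9.23 in cKO base. Replicates lay within 0.31 of each other in every group, and the groups of each region were at least 0.70 apart. cKO minus control was -0.93 ± 0.20 in the apex (unadjusted p = 0.00181 in limma), -1.02 ± 0.20 in the base (unadjusted p = 0.00104) and -0.98 ± 0.16 over both, 1.97-fold lower in cKO (unadjusted p = 0.00146, adjusted p = 0.999). Its control mouse 2 was the higher in both regions, so the difference did not rest on control mouse 1, and it ran from -1.07 to -0.88 as samples and mice were left out.

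Rtp4, a chaperone of membrane receptors, had 9.86 and 9.23 in control apex, 8.39 and 8.65 in cKO apex, 10.19 and 9.83 in control base, and 9.13 and 9.14 in cKO base. All 4 controls lay above all 4 cKO samples. The difference was -1.03 ± 0.25 in the apex, the largest below 0 in the list there, and -0.95 ± 0.21 over both regions (limma, unadjusted p = 0.00657, adjusted p = 0.999). A second probe set of Rtp4, below the filter, gave 1.05 in the apex, and the mean of both gave 0.011.

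Ifi35, Parp9, Parp14 and Xaf1 differed less in the probe sets used. Ifi35, an interferon-induced leucine zipper protein, had 11.02 and 10.95 in control apex against 11.12 and 11.07 in cKO and 11.53 and 11.62 in control base against 11.45 and 11.42 in cKO. The order of the genotypes was opposite in the regions. Parp9, a macrodomain protein of the poly-ADP-ribose polymerase family, was separate only in the base, with 9.83 and 9.60 in controls and 9.42 and 9.18 in cKO. Parp14 overlapped in both regions, at 7.75 to 8.76. Xaf1, an inhibitor of the apoptosis blocker Xiap, had 8.06 and 7.70 in control apex against 7.28 and 7.74 in cKO and overlapped in both regions.

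The 5 members below the filter have low, noisy signals and no test. Cxcl10, a chemokine that attracts T cells, had 6.44 and 5.25 in control apex, 4.0 and 3.57 in cKO apex, 6.55 and 6.14 in control base, and 1.68 and 5.97 in cKO base. All 4 of its control values were above or close to the filter level, and 3 of 4 cKO values were below it. Mx1, a GTPase that blocks influenza virus, reached 6.66 in control base replicate 1 and was at 2.33 to 5.14 elsewhere. Zbp1, a sensor of Z-form nucleic acid, was also highest in that sample, at 5.04 against 1.90 in its replicate. Oas3 was at 3.16 to 5.59 and Mx2 at 1.82 to 3.30.

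The second comparison set the control mice against each other, by region, with 1 sample on each side and so no replicate check. Control mouse 1 was above mouse 2 in both regions for 22 of 31 members (30.6% of all tested genes), and mouse 2 was above mouse 1 in both for 3 (35%), Ddx58, Ifitm2 and Lgals3bp. The median of mouse 1 minus mouse 2 was 0.18 (log2) in the apex and 0.36 in the base, against -0.02 in each over all genes. After quantile normalization of the arrays the apical median was 0.024.

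The widest differences were in the base, in Irf7 and several RNA-directed effectors. Past 2-fold there, mouse 1 was higher for 6 members (8.64% of all genes): Ifit1 by 4.70-fold, Ifit3 by 4.12-fold, Irf7 by 3.56-fold, Ifit2 by 2.62-fold, Oas1a by 2.52-fold and Oas2 by 2.37-fold. Mouse 2 was higher past 2-fold for 0 members in the base (5.62%). In the apex, mouse 1 was higher past 2-fold for Oasl1 (2.48-fold) and Usp18 (2.23-fold), 2 of 31 members against 2.44% of all genes, and mouse 2 for Ifitm1 (3%). No member passed 2-fold in both regions (0.817% of all genes). The basal share of members past 2-fold, 6 of 31, is set beside a broad difference between these samples in all genes, and Irf7 and Oas1a, far apart in the base, differed by 0.10 and -0.07 in the apex.

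The cKO mice were closer to each other. Mouse 1 minus mouse 2 had a median of 0.05 in the apex and 0.03 in the base, and 1 member passed 2-fold in each region: Rsad2 in the apex, higher in mouse 1 (1.70% of all genes), and Oas2 in the base, higher in mouse 2 (1.5%). The 6 members that were far apart in the basal controls, other than Oas2, differed by -0.11 to 0.55 between the basal cKO samples.

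**Figure D4:**
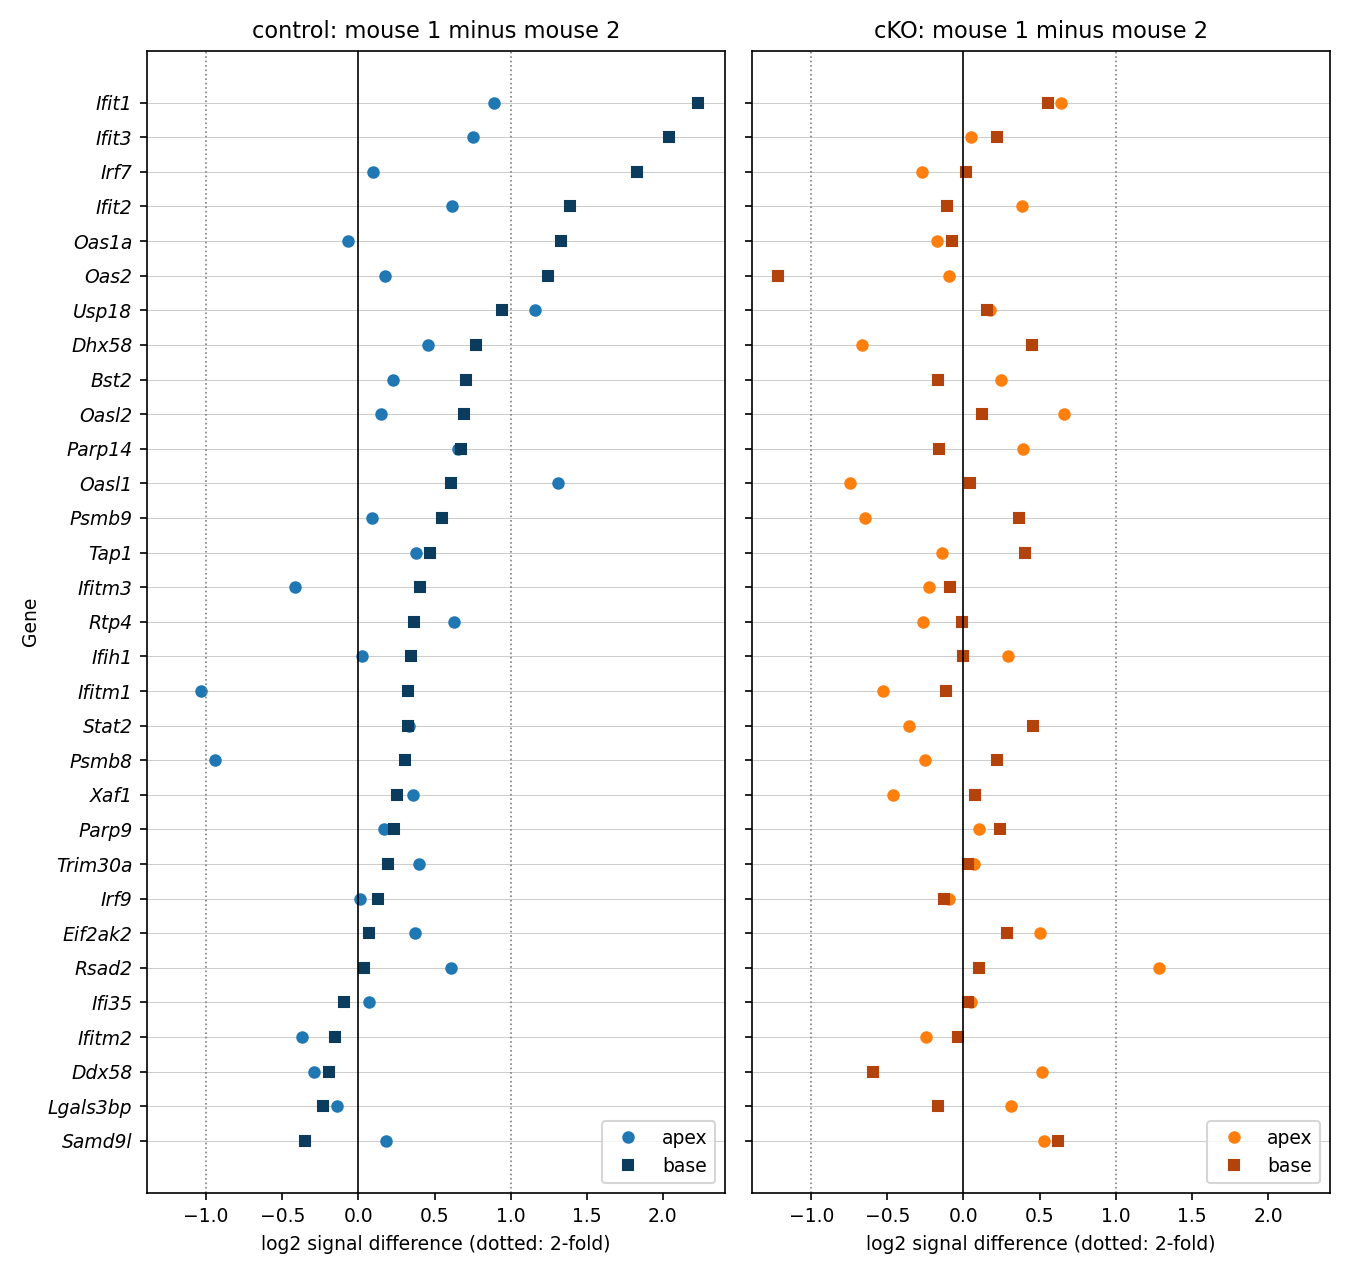
Mouse 1 minus mouse 2 in log2 signal for the 31 tested members, in controls (left) and cKO (right), with circles for the apex, squares for the base and dotted lines at 2-fold. In controls the squares of Ifit1 and Ifit3 lie beyond 2, and in cKO the only points past 2-fold are Rsad2 in the apex and Oas2 in the base.

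Markers of other cell types were read beside the members. Signals of the 18 macrophage and leukocyte genes summed to 9523 (apex) and 10445 (base) in control mouse 1 and to 15794 and 16676 in control mouse 2, with 11703 to 15730 in cKO. Control base replicate 1, the highest array in the members, lay below all arrays but control apex replicate 1 in these markers, and Ptprc, which marks all leukocytes, was at 8.18 in control base replicate 1, the lowest of the 8 arrays. Neutrophil genes summed to 2595 to 5089 in controls and 4482 to 8702 in cKO. Stria vascularis genes summed to 21084 in control base replicate 1 against 51518 to 57283 in the other 3 basal samples. Endothelial genes (9 tested) moved in part with the members: their median deviation was -0.34 and -0.27 in cKO apex, -0.23 and 0.07 in control apex, 0.11 and 0.27 in cKO base, and 0.14 and 0.48 in control base. Their medians of cKO minus control were -0.22 in the apex and -0.05 in the base, of the same sign as the members'. The part of tissue composition and of sex in the members' values was not tested, and with bulk RNA fewer cells of a type and less RNA per cell cannot be told apart.

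The third comparison asked whether the members differed between the basal and the apical region. Most were higher in the base: base minus apex was above 0 for 27 of 31 over both genotypes and below 0 for 4 (52.6% of all genes), with a median of 0.41 against -0.02 over all genes. Lgals3bp rose from apex to base and was the one member past the threshold. The base was above the apex in each of the 4 mice for 15 of 31 members (16.0% of all genes), and Ifitm1 was the one member that was lower in the base in all mice.

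Over both genotypes limma called 157 genes (1.19%), and 2274 had an unadjusted p below 0.05. The 1 member among them is read against 0.59% of genes called higher. At an unadjusted p under 0.05, 10 members were higher in the base (8.66% of all genes) and 1 was lower (8.54%). Lgals3bp gave 0.93 ± 0.14 (limma, adjusted p = 0.0347), from the signals listed above: its basal samples exceeded its apical samples in each genotype by at least 0.64. With the replicate block, which compares base and apex within a mouse, limma called 255 genes and 2 members, Lgals3bp (adjusted p = 0.04) and Ifitm2 (adjusted p = 0.0473). The call of Lgals3bp was lost when any 1 cKO sample or any 1 control apical sample was left out (adjusted p = 0.113 to 0.157 in limma, with differences of 0.85 to 1.0). It was also lost without cKO mouse 1 (1.05, adjusted p = 0.538) or mouse 2 (0.81, adjusted p = 0.448), and without the intensity trend (adjusted p = 0.0531). Without control base replicate 1, limma called 1518 genes and 5 members, and without control base replicate 2, 365 and 4.

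Ifitm3 gave 0.81 ± 0.15 and Ifitm2 0.76 ± 0.14 (adjusted p = 0.0544 for each, limma), which is above the threshold. Ifitm2 had basal signals above its apical ones in both genotypes, with the wider gap in cKO (8.80 and 9.04 against 10.04 and 10.07). Irf7 gave 1.01 ± 0.37 (adjusted p = 0.235), and Xaf1 0.74 ± 0.18 (adjusted p = 0.0981), with 8.59 and 8.34 in control base and 8.44 and 8.37 in cKO base. In the other direction Ifitm1 gave -1.09 ± 0.24 (adjusted p = 0.0826). With the mouse as a random block in limma, 527 genes and 6 members passed, among them Lgals3bp (adjusted p = 0.0151), Ifitm2 (0.0229), Ifitm3 (0.0268), Ifitm1 (0.0439) and Xaf1 (0.0463), so the calls of the last 4 depend on how the mouse enters the fit.

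By genotype, the median of base minus apex was 0.49 in controls and 0.19 in cKO. Basal samples lay above apical ones without overlap for 18 members in controls (17% of all genes), for 14 in cKO (23.2%) and for 10 in both (8.67%): Irf7, Usp18, Ifih1, Ddx58, Ifi35, Ifitm2, Ifitm3, Lgals3bp, Bst2 and Xaf1. In controls 0 genes passed in limma, and 994 had an unadjusted p below 0.05 (7.52%). Of the members 6 were higher in the base at that p (3.84% of all genes) and 1, Ifitm1, lower (3.68%). In cKO 11 genes passed (0.0832%), and 1490 had such a p (11.3%), with 7 members higher (5.61% of all genes) and Ifitm1 lower (5.66%). No member was called in either, and with the replicate block limma called 0 genes in cKO. Without control base replicate 1 the control median was 0.28, with 551 genes and 1 member called, and without control base replicate 2 it was 0.69. Hair cell and supporting cell markers went the other way, with medians of -1.10 and -1.05 over both genotypes, and stria vascularis markers gave 2.14. Over both genotypes, the members' 0.41 stood beside medians of 0.48 for endothelial, 0.37 for neutrophil, 0.33 for lymphocyte (4 tested) and 0.21 for macrophage and leukocyte markers. Split into controls and cKO, neutrophil markers gave -0.16 and 0.73, endothelial 0.35 and 0.61, and macrophage and leukocyte 0.15 and 0.24. These were larger in cKO, unlike the members. Lymphocyte markers gave 0.38 and 0.25. The part of these cells in the members' differences was not tested.

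The fourth comparison asked whether the genotype difference itself differed between regions. The median of the basal minus the apical genotype difference was -0.25 over the members, and 21 of 31 were below 0 (50.5% of all genes). Without control base replicate 1 the median was 0.071, and without both samples of control mouse 1 it was 0.10. For this contrast 0 genes passed in limma, and 149 had an unadjusted p below 0.05. A pair of members were among them: Oasl2 (-1.13 ± 0.45, unadjusted p = 0.0367, 0.575% of all genes lower at that p) and Ifitm2 (0.76 ± 0.28, unadjusted p = 0.0270, 0.552% higher), each with adjusted p = 1. For Oasl2 the basal difference exceeded the apical one, and for Ifitm2 the apical groups were the ones far apart.

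Genes up and down the pathway were read from lists of textbook members. Of 10 interferon ligand genes 6 had a probe set of their own, and all 6 lay below the filter: Ifnb1, the first type I interferon made, had signals of 3.53 to 5.13, and Ifna1 of 3.97 to 5.73. The 9 receptor and kinase genes were all tested, with medians of 0.00 in the apex and -0.15 in the base, and for 1 of 9 controls lay above cKO without overlap in both regions (3.99% of all genes). Ifnar1, a chain of the type I receptor, was at 9.05 to 9.66 and Jak1 at 10.56 to 11.03. Limma called 0 of these 9 for genotype, and 0 of 9 were below an unadjusted p of 0.05 in the lower direction over both regions.

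Other interferon transcription factors (8 tested) gave medians of 0.09 and 0.00, nucleic acid sensing upstream of interferon (13 tested) 0.00 and 0.05, and brakes on the response (10 tested) -0.06 and 0.03, apex first. In these 3 lists 0 genes separated the genotypes with controls higher in both regions, against 3.99% of all genes. In lists this short a count of 0 is near that share. Limma called 0 of them for genotype. Irf3, which starts interferon transcription, was at 9.84 to 10.25, and Irf1, an early target, at 9.18 to 9.54.

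A longer list of 42 other interferon-stimulated genes, none of them among the 38, had 35 tested. Its medians were -0.12 in the apex and -0.41 in the base, with -0.27 over both regions, and 28 of 35 were below 0 (50.3% of all genes). Controls lay above cKO in both regions without overlap for 7 of 35 (3.99% of all genes). Limma called 0 for genotype, with 4 of 35 lower at an unadjusted p under 0.05 over both regions (1.08% of all genes). Ifi27l2a, an interferon-induced protein of mitochondria, was the one with the smallest p. It had 8.85 and 8.46 in control apex, 7.65 and 7.33 in cKO apex, 10.08 and 8.73 in control base, and 7.93 and 8.46 in cKO base, separate in each region. It gave -1.19 ± 0.32 over both regions (limma, unadjusted p = 0.0129). Mndal, a nucleic acid binding protein of the p200 family, gave -0.99 ± 0.27. The GTPases Gbp3 and Igtp, which attack the vacuoles of parasites, gave -0.74 ± 0.20 and -0.48 ± 0.15. In this list too control base replicate 1 was the highest array, for 20 of 35 (15.4% of all genes).

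Class I antigen presentation, with 9 tested genes beside the members, gave medians of -0.09 in the apex and -0.31 in the base, and for 1 of 9 controls lay above cKO without overlap in both regions (3.99% of all genes). B2m, the invariant light chain, had 12.34 and 12.58 in control apex, 11.86 and 12.28 in cKO apex, 12.80 and 12.90 in control base, and 12.38 and 12.64 in cKO base. It was separate in each region and gave -0.36 ± 0.15 over both (limma, unadjusted p = 0.0648). Here both basal controls stood alike, with list medians of 0.33 and 0.31 above each gene's mean, unlike the members, for which control base replicate 1 stood above its replicate.

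**Figure D5:**
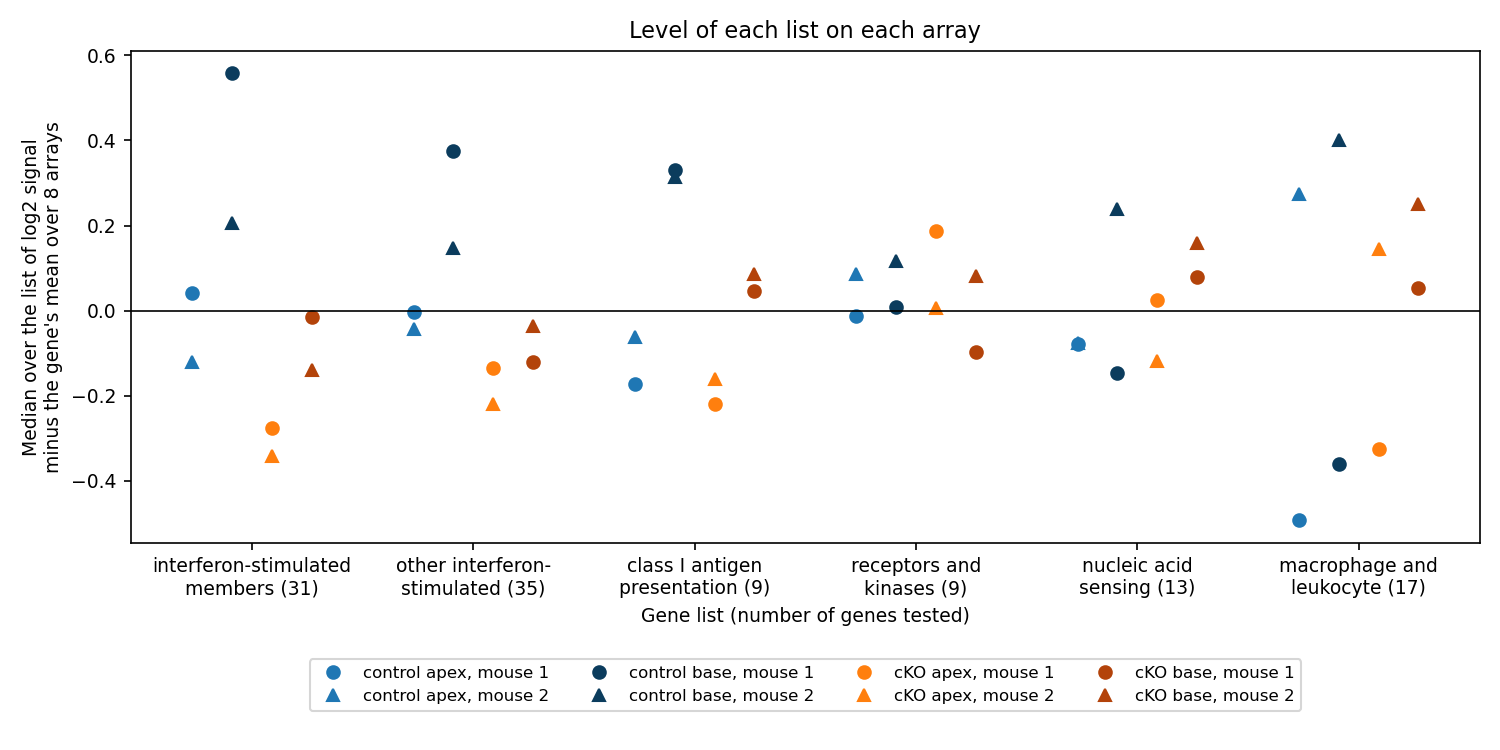
Each point is the median, over the tested genes of a list, of the log2 signal minus each gene's mean over the 8 arrays, for 1 array (circles mouse 1, triangles mouse 2, colours the 4 groups). The members and the other interferon-stimulated genes are highest in control base mouse 1 (0.56 and 0.38), whereas macrophage and leukocyte genes are lowest in both samples of control mouse 1 (-0.49 and -0.36).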

How the data were processed

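The authors deposited 1 linear MAS5 intensity per probe set and array, scaled to a trimmed mean of 500 (2% off each end). Per the submitters' processing notes, MAS5 and affy 1.26 were used; the array version is not given in the sources used here. Of 45101 probe sets, 34945 had 1 annotated gene, 932 several and 9160 none listed, with 64 array controls. Values were log2 transformed without a pseudocount. Each gene took its probe set with the highest mean, and genes under the 40th percentile (a signal of 38.7) were not tested. limma 3.58.1 (R 4.3.3) was fitted to 4 group means with an intensity trend, two-sided, with Benjamini-Hochberg adjustment over 13221 genes at 0.05; the genotype difference over both regions used the mean of each mouse's samples. Errors are standard errors of that fit. The procedure was tested on simulated data.

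The design ties a sample to 1 mouse, so apex and base of 1 genotype and number were paired. Deviations from the group means correlated between apex and base at r = 0.339 in controls and 0.0683 in cKO, across genes, which are not independent replicates.

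The members, gene lists, tests and named genes were chosen with earlier results of these data known. Members were described in full where the control mice differed over 2-fold in both regions, where the p was among the 3 smallest of a comparison, and at the extremes of each role; Usp18, Stat2, Ifit1, Ifit2, Ifit3, Oas1a, Oas2, Rsad2, Trim30a, Tap1, Parp9 and Cxcl10 were named after their values were seen. Promoters and coordinates are RefSeq on GRCm38.p6. Alternatives covered the filter, pseudocount, normalization, probe set rule, variance model, mouse blocks and each left-out sample. With 2 samples a group, p-values rest on few mice.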

Additional observations from a re-analysis of the deposited data

How the results depend on the processing

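The genotype medians of the members stayed below 0 under every alternative run, and limma called 0 members for genotype in each of them except when control base replicate 2 or control mouse 2 was left out. Counts of genes called moved most. Without the intensity trend limma called 1 gene in the apex and 1 in the base for genotype. For base against apex in cKO (11 genes), it called 0 without a filter, after quantile normalization, after centring on the 75th percentile and without the trend, 6 with the mean of all probe sets, 449 with 2 members when fitted to the compared groups alone, and 81 with 1 member with the mouse as a random block. That median was 0.37 with the filter at the 60th percentile and 0.35 after quantile normalization. Over both genotypes (157 genes, 1 member) it called 98 genes with the mean of all probe sets, 70 genes and 0 members without the trend, 3 members with the filter at the 60th percentile, 2 after centring, 2 with low values raised to the filter, and 527 genes and 6 members with the random block.

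The replicate block gave 0 genes for base against apex in cKO and 255 genes and 2 members over both genotypes. Across genotypes the number is only shared, and with it as a block the genotype medians were -0.38 in the apex, -0.44 in the base and -0.38 over both, with 0 genes called; it changed no other call.

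Leaving out samples or mice gave ranges, lowest to highest. For genotype in the apex limma called 0 to 3 genes. In the base it called 0 to 37 genes and 0 to 2 members without a sample and 0 to 103 genes and 0 to 4 members without a mouse, with the median at -0.74 to -0.19, Ifit1 at -2.22 to 0.014 and Ifit3 at -2.02 to 0.020. Over both regions it called 0 to 9 genes, with the median at -0.48 to -0.15. For the difference between regions it called 0 to 13 genes, with the median at -0.46 to 0.071 without a sample and up to 0.10 without a mouse. Base against apex gave 0 to 551 genes, 0 to 1 members and a median of 0.28 to 0.69 in controls, 0 to 316 genes, 0 to 1 members and 0.18 to 0.36 in cKO, and 0 to 1518 genes and 0 to 5 members over both. Without control mouse 1 or mouse 2 limma called 449 and 435 genes in cKO and 1049 and 334 over both, with up to 2 and 6 members, and the control count was 157 without mouse 1. The cKO median was 0.34 without cKO mouse 1. The single sample left in a group was assumed to vary like the other groups. Other alternatives were chosen after seeing the data. With 1 control mouse left out, 12 to 20 members separated with controls higher in both regions (17.2% to 20.5% of all genes). In the base 15 to 25 did so with 1 control mouse or sample left out (39.0% to 39.3% of all genes). A single control sample separates more easily for every gene, so these counts are not set against those from 2 control samples. Under the scaling alternatives 10 to 11 members separated in both regions (3.99% of all genes in the main setting).

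Small values near 0 changed sign: Rtp4 in the apex was 0.011 with the mean of all probe sets. The cKO mice differed by a median of -0.021 in the apex without a filter, -0.021 with the mean of all probe sets and -0.0044 in the base after centring, and 1 member was past 2-fold in both regions without a filter. The apical median of the control mice was 0.024 after quantile normalization. The cause of these movements was not tested. Signals near background limit Dhx58, Eif2ak2 and the 5 untested members.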
